A study of Mus musculus with 12 samples.

Results

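Class 3 semaphorins, the neuropilins that bind them and plexin D1 were followed as a group of 10 genes in the injured mouse cortex, among 20776 genes in the deposited tables. The members were chosen by symbol: Sema3a, Sema3b, Sema3c, Sema3d, Sema3e, Sema3f, Sema3g, Nrp1, Nrp2 and Plxnd1, and all 10 were found. RNA came from tissue in a square of 3 mm around a cortical wound, taken 12 h after injury from mice lacking both copies of Sema4b (Sema4B-/-, knockout) or lacking 1 copy (Sema4B+/-, heterozygote). Cells were separated by immunopanning: those held by an Acsa-2 plate formed the astrocyte fraction, and those held by a plate with secondary antibody alone or by a CD45 plate formed the immune fraction. The 4 groups were astrocyte knockout, astrocyte heterozygote, immune knockout and immune heterozygote, with 3 libraries each. All groups carried at least 1 altered Sema4b copy and all were injured, so wild-type and uninjured levels were not analysed here. The labels give neither age, strain nor the design of the allele, and do not tie libraries to animals. The p-values therefore rest on the spread among these libraries, which may be technical.

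Class 3 semaphorins are secreted guidance proteins. Most of them bind a neuropilin, which has a short cytoplasmic tail and signals through a partner plexin of the A family, and the plexin acts on small GTPases and on the cytoskeleton. Semaphorin 3E differs in that it can bind plexin D1 without a neuropilin. These ligands steer growing axons and shape blood vessels in the developing brain, neuropilins also bind VEGF, and semaphorin 3A is known from scar tissue after injury of the central nervous system.

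Libraries held 13530229 to 15993564 reads in the astrocyte fraction and 11111965 to 15135960 in the immune fraction, and knockout libraries were deeper than heterozygous ones in both. The members together took 0.00972% to 0.0150% of the reads of an astrocyte library and 0.0177% to 0.0280% of those of an immune library. Libraries are named by the number in their deposited column head. Sema4b itself had 634, 416 and 802 reads in astrocyte knockout libraries 8, 10 and 12, against 860, 1489 and 885 reads in heterozygous libraries 2, 4 and 6. In the immune fraction it had 91, 31 and 20 reads in knockout libraries 7, 9 and 11, against 108, 84 and 93 reads in heterozygous libraries 1, 3 and 5. Knockout libraries thus kept Sema4b reads. Scaled within the fraction, they lay wholly below heterozygous ones in both, as did 4.53% of all genes in astrocyte and 9.29% in immune libraries. The log2 fold change, knockout over heterozygote, was -0.88 ± 0.29 in astrocyte and -1.32 ± 0.48 in immune libraries (± SE). Neither passed the threshold (quasi-likelihood F test of edgeR, unadjusted p = 0.0144 and 0.0206, Benjamini-Hochberg adjusted p = 0.930 and 0.270). Among the marker lists, all 12 genes for astrocytes rose and all 12 for microglia fell in the astrocyte fraction of heterozygotes. Markers of vessel and other cells were also higher in that fraction in heterozygotes. By edgeR these were 13 of 14 endothelial, 7 of 10 mural, 9 of 9 fibroblast and 8 of 8 oligodendrocyte markers, and 1 mural marker was lower. Among all 16880 genes tested, 30.0% were higher and 30.3% lower. Summed oligodendrocyte markers stood at 2602 to 5573 CPM in astrocyte heterozygotes, against 615 to 1196 CPM for endothelial markers. The immune fraction held neuron markers too, at sums of 2786 to 4589 CPM in heterozygotes and 4590 to 7686 CPM in knockouts. Its summed microglia markers were at 11316 to 15225 CPM in heterozygotes and 6415 to 9935 CPM in knockouts.

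Promoters are shown for 4 members, since these carry the differences described below: Plxnd1, which stood apart between the genotypes in the immune fraction, Nrp2 and Sema3c, which lay at opposite ends between the fractions, and Sema3e, the ligand of plexin D1. Sequences are from RefSeq on GRCm38.p6, 5′ to 3′, from 250 bases before to 50 bases after the start that RefSeq gives for the gene, and 8 of the 10 members had an entry (Sema3b and Sema3f had none). That start is not always the GENCODE start used for gene positions below: the windows of Sema3a, Sema3c and Nrp1 lie wholly downstream of it.
Plxnd1, chr6:115994956-115995255, minus strand, capitals marking GGGCGTGG: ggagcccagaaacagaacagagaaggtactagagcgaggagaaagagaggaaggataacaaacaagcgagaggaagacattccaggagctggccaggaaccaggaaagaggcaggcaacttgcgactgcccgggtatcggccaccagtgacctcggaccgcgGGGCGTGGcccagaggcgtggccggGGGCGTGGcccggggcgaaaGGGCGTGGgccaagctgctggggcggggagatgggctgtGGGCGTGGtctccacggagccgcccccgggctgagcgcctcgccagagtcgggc
Nrp2, chr1:62703067-62703366, plus strand, capitals marking GGGCGG on either strand: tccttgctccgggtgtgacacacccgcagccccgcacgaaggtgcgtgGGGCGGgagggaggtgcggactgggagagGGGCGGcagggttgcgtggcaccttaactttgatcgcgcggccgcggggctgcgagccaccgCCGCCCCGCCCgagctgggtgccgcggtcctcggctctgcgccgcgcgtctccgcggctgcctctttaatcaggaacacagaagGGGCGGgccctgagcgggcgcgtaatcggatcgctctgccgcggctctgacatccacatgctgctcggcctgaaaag
Sema3c, chr5:17574566-17574865, plus strand, capitals marking GGGCGG on either strand: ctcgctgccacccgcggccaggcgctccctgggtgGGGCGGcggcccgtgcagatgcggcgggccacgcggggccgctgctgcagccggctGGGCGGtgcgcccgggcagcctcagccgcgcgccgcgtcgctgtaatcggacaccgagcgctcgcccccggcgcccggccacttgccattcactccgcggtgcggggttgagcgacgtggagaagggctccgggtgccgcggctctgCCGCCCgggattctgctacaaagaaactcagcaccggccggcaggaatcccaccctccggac
Sema3e, chr5:14025026-14025325, plus strand, capitals marking CACGTG: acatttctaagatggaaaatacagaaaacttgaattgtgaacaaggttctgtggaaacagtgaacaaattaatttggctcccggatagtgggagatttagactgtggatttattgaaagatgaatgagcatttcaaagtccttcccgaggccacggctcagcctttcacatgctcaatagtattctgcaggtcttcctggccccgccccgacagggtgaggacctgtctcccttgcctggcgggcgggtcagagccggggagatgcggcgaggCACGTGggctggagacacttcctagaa

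The string GGGCGTGG stood 4 times in the Plxnd1 window, on the printed strand each time. Of 32851 promoters of the same length searched on both strands, 5.33% held it at least once and 11 held it 4 times or more. It was noticed in this window before it was counted. The GC box GGGCGG, a binding motif of Sp1-family factors, occurred 5 times at Nrp2, 3 times at Sema3c, 2 times each at Plxnd1 and Sema3e, and once each at Nrp1 and Sema3g, against 35.7% of all promoters with at least 1. The windows of Sema3a and Sema3d held none, and their GC contents of 41.3% and 49.7% were the lowest of the 8, against 75.7% at Sema3c. The E-box CACGTG stood once in the Sema3e window and in 7.15% of all promoters. The TATA box TATAAA was found at none of the 8, against 13.6% of all promoters. These matches describe letters and show neither binding nor a cause.

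In every group the receptors stood above most of the ligands. Levels between genes are given per length, as RPKM, here CPM on TMM-scaled library totals per kilobase of merged exons (GENCODE mouse release 21, GRCm38). In the astrocyte fraction Plxnd1 led, at 8.88 ± 1.77 RPKM in knockouts and 9.90 ± 2.63 RPKM in heterozygotes (SD, n = 3 each, as for all levels after ±). It was followed there by Nrp1 at 2.28 ± 0.360 and 2.33 ± 0.152 RPKM, Sema3c at 1.88 ± 0.0958 and 1.85 ± 1.06 RPKM, and Nrp2 at 1.09 ± 0.102 and 1.37 ± 0.205 RPKM, in knockouts and heterozygotes. In the immune fraction Nrp2 led, at 9.64 ± 3.18 RPKM in knockouts and 12.6 ± 4.00 RPKM in heterozygotes. Plxnd1 came next at 7.41 ± 1.77 and 4.25 ± 0.460 RPKM, then Nrp1 at 1.83 ± 0.385 and 2.55 ± 0.573 RPKM, and Sema3f was the highest ligand there at 1.31 ± 0.249 and 0.778 ± 0.0660 RPKM. The order depends on the exon length used: per length of the longest transcript, immune heterozygotes had means of 6.84 RPKM for Nrp1 and 4.49 RPKM for Plxnd1, and Sema3c and Nrp2 changed places in astrocyte heterozygotes.

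Neighbours in the order by merged exons were not always apart. In immune heterozygotes each of Nrp2, Plxnd1, Nrp1 and Sema3f lay above the next gene in all 3 libraries, whereas in immune knockouts Nrp2 overlapped Plxnd1 and Nrp1 overlapped Sema3f. In astrocyte knockouts Plxnd1, Nrp1, Sema3c and Nrp2 were each separate from the next gene, and in heterozygotes Nrp1, Sema3c and Nrp2 overlapped. The 6 lowest members of every group had means of at most 0.633 RPKM, and neighbours among them overlapped. Sema3b and Sema3g were counted in as few as 4 and 2 reads in an immune library, with Sema3g at 2 reads in knockout library 11. A floor of 3 reads corresponds to 0.188 to 0.270 CPM over these libraries and covers counting error only, so fold changes of these genes rest on few reads.

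**Figure D1:**
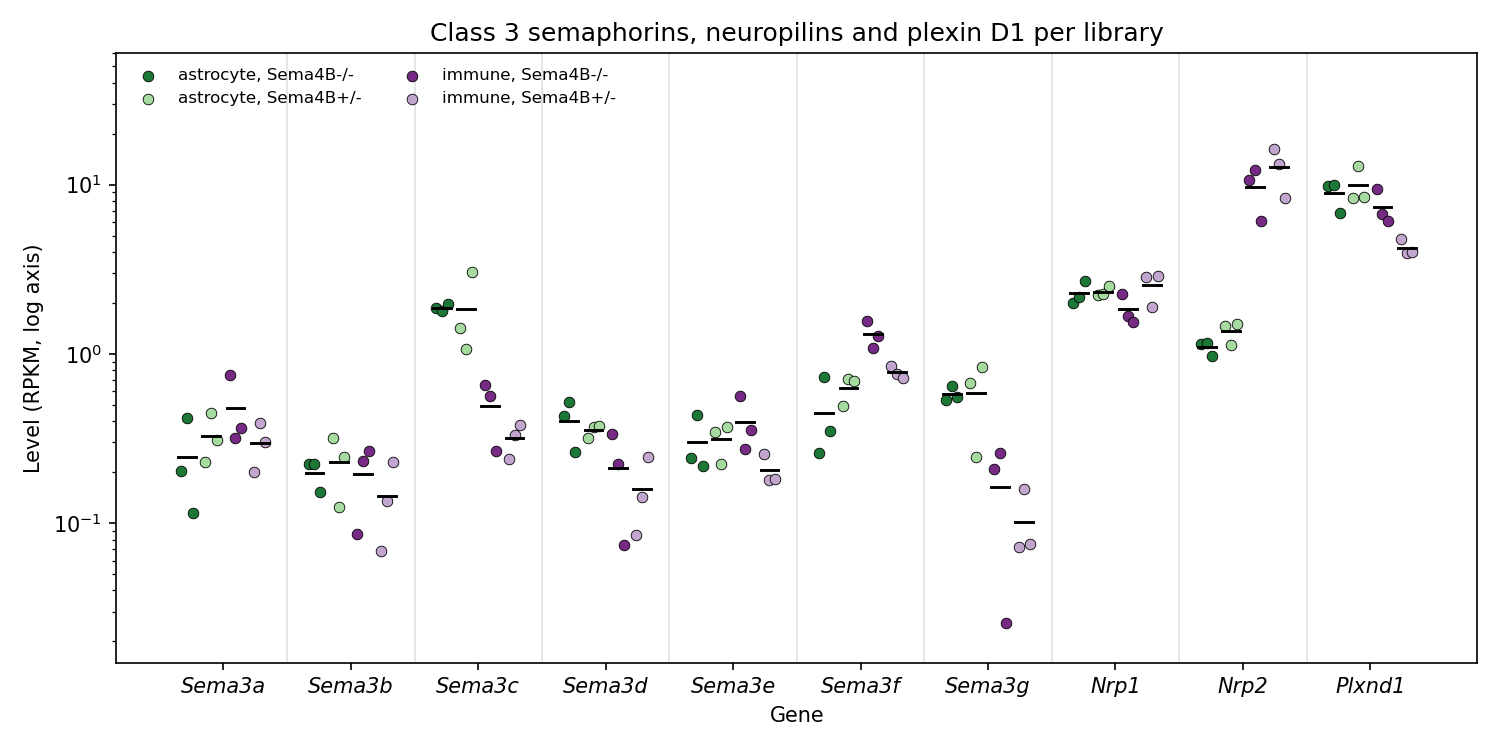
Level of each member in every library, in RPKM on a log axis, with points for libraries and a bar for the mean of 3. Nrp2 has means of 1.09 and 1.37 RPKM in the astrocyte groups and of 9.64 and 12.6 RPKM in the immune groups, and Sema3c shows the opposite order.

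The fractions were compared to see which of these genes were higher in one of them. Nrp2, the neuropilin preferred by semaphorin 3F, was far lower in the astrocyte fraction, while Nrp1, preferred by semaphorin 3A, overlapped between them. Sema3c and Sema3g were higher in the astrocyte fraction in both genotypes. By edgeR, 2 members rose and 2 fell in knockouts, where 29.0% of 16880 tested genes rose, 30.7% fell and 59.8% did either. In heterozygotes 3 members rose and 1 fell, against 30.0%, 30.3% and 60.3% of all genes, so the members were called no more often than genes in general. All 10 members passed the filter on low counts in every comparison. The median log2 fold change of the members was 0.15 in knockouts and 0.63 in heterozygotes, against -0.07 and -0.04 over all genes. The fit takes astrocyte and immune libraries as unrelated samples, though a mouse may have given both. In bulk samples fewer cells of a type and less RNA per cell cannot be told apart.

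Nrp2 (ENSMUSG00000025969, GRCm38 chromosome 1, 62703285 to 62818695, plus strand) had 192, 206 and 159 reads in astrocyte knockout libraries 8, 10 and 12, against 2140, 2084 and 1239 reads in immune knockout libraries 7, 9 and 11. In heterozygotes it had 217, 180 and 258 reads in astrocyte libraries 2, 4 and 6, against 2365, 2167 and 1168 reads in immune libraries 1, 3 and 5. No astrocyte library came near the lowest immune library. The log2 fold change, astrocyte over immune, was -3.14 ± 0.29 in knockouts and -3.21 ± 0.29 in heterozygotes (± SE for all fold changes; edgeR adjusted p = 7.01e-07 and 4.55e-07). Summed microglia markers moved the same way, at 375 to 706 against 6415 to 9935 CPM in knockouts and 417 to 582 against 11316 to 15225 CPM in heterozygotes. Summed neutrophil markers were at 13.9 to 28.6 against 548 to 1467 CPM in knockouts and 24.7 to 32.8 against 1249 to 2470 CPM in heterozygotes. Monocyte and macrophage markers were at 3.19 to 5.38 against 165 to 314 CPM and 3.27 to 5.93 against 372 to 429 CPM in the same order. The part of these cells in the result was not tested.

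Nrp1 (ENSMUSG00000025810, chromosome 8, 128358604 to 128503363, plus strand) stood at 19.6, 21.1 and 26.3 CPM in astrocyte knockout libraries 8, 10 and 12, against 22.2, 16.4 and 15.2 CPM in immune knockout libraries 7, 9 and 11. Heterozygotes had 21.8, 22.2 and 24.5 CPM in astrocyte libraries 2, 4 and 6, against 28.0, 18.5 and 28.4 CPM in immune libraries 1, 3 and 5. The groups overlapped in both genotypes, at log2 fold changes of 0.32 ± 0.20 and -0.13 ± 0.20 (edgeR adjusted p = 0.195 and 0.610). The ratio of Nrp2 to Nrp1 per length was 0.491 ± 0.113 in astrocyte knockouts against 5.29 ± 1.75 in immune knockouts, and 0.586 ± 0.0809 in astrocyte heterozygotes against 5.20 ± 2.10 in immune heterozygotes. By longest-transcript lengths, tried after seeing the data, it was 0.322 ± 0.0739 against 3.47 ± 1.15 in knockouts and 0.384 ± 0.0531 against 3.41 ± 1.38 in heterozygotes, astrocyte against immune. Each of the contrasts by merged exons had an exact two-sided permutation p of 0.1, the smallest that 3 against 3 libraries allow (0.2 adjusted over the 8 contrasts of this kind). A microRNA gene, Mir1903, shares 80 exon bases with Nrp1, which is 0.818% of its merged exons, and no other annotated gene shares exon bases with a member.

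Sema3c (ENSMUSG00000028780, chromosome 5, 17574281 to 17730268, plus strand), a ligand that acts on vessels and on the outflow tract of the heart, had 187, 193 and 195 reads in astrocyte knockout libraries 8, 10 and 12, against 79, 58 and 33 reads in immune knockout libraries 7, 9 and 11. Heterozygotes had 127, 102 and 317 reads in astrocyte libraries 2, 4 and 6, against 21, 33 and 32 reads in immune libraries 1, 3 and 5. All astrocyte libraries lay above all immune ones. The log2 fold change was 1.93 ± 0.39 in knockouts and 2.54 ± 0.41 in heterozygotes (edgeR adjusted p = 0.000774 and 0.000112). Astrocyte knockout libraries agreed closely with each other, whereas heterozygous library 6 held more than any other.

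Sema3g (ENSMUSG00000021904, chromosome 14, 31217860 to 31230352, plus strand), a semaphorin known from arterial endothelium, had 34, 44 and 35 reads in astrocyte knockout libraries 8, 10 and 12, against 16, 17 and 2 reads in immune knockout libraries 7, 9 and 11. In heterozygotes it had 38, 15 and 55 reads in astrocyte libraries 2, 4 and 6, against 4, 10 and 4 reads in immune libraries 1, 3 and 5. Groups did not overlap in either genotype, at log2 fold changes of 1.83 ± 0.57 and 2.47 ± 0.63 (edgeR adjusted p = 0.0137 and 0.00378). Summed endothelial markers, scaled within the fraction, stood at 839, 731 and 629 CPM in astrocyte knockout libraries 8, 10 and 12 and at 752, 574 and 1123 CPM in heterozygous libraries 2, 4 and 6. Their order was that of Sema3c and of Sema3g among the heterozygous libraries and of neither among the knockout ones. On the scale of all 12 libraries, summed endothelial markers were at 683 to 900 against 170 to 470 CPM in knockouts and 615 to 1196 against 295 to 369 CPM in heterozygotes, astrocyte against immune, and their part in these results was not tested.

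Sema3f (ENSMUSG00000034684, chromosome 9, 107681500 to 107710475, minus strand), a repellent for axons and tumour vessels, was lower in the astrocyte fraction of knockouts. It stood at 1.35, 3.79 and 1.82 CPM in astrocyte knockout libraries 8, 10 and 12, against 8.16, 5.60 and 6.61 CPM in immune knockout libraries 7, 9 and 11, which is -1.54 ± 0.33 as a log2 fold change (edgeR adjusted p = 0.00128). In heterozygotes astrocyte libraries 2, 4 and 6 had 2.56, 3.72 and 3.58 CPM and immune libraries 1, 3 and 5 had 4.41, 3.97 and 3.74 CPM. These groups were also separate but close, at -0.29 ± 0.33 (edgeR adjusted p = 0.462). Summed neuron markers were also lower in the astrocyte fraction of knockouts, at 2231 to 4028 against 4590 to 7686 CPM, and overlapped in heterozygotes, at 2508 to 3367 against 2786 to 4589 CPM. Library 10 was the highest astrocyte knockout library for Sema3f and for these markers, whose part in the values of Sema3f was not tested. Plxnd1 showed the converse. It was higher in the astrocyte fraction of heterozygotes, at 60.6, 94.5 and 61.8 CPM in libraries 2, 4 and 6 against 34.9, 28.9 and 29.2 CPM in immune libraries 1, 3 and 5, which is 1.22 ± 0.22 as a log2 fold change (edgeR adjusted p = 0.000328). In knockouts the fractions overlapped, with 71.4, 73.1 and 49.98 CPM in astrocyte libraries 8, 10 and 12 and 68.8, 49.1 and 44.4 CPM in immune libraries 7, 9 and 11, at 0.26 ± 0.22 (edgeR adjusted p = 0.317).

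The remaining ligands did not pass between the fractions by edgeR. Sema3d, which guides vessels and neural crest, had log2 fold changes of 0.93 ± 0.46 in knockouts and 1.17 ± 0.49 in heterozygotes (edgeR adjusted p = 0.0963 and 0.0526), and its heterozygous groups did not overlap. Sema3d passed in heterozygotes with RLE scaling, DESeq2, limma-voom, no filter on low counts or a fit of the 6 heterozygous libraries, and without immune library 5 (edgeR adjusted p = 0.0254). It passed in knockouts without immune library 7 (edgeR adjusted p = 0.0263). Sema3a, the classical axon repellent, stood at -0.96 ± 0.45 and 0.14 ± 0.46 (edgeR adjusted p = 0.0825 and 0.809), and passed in knockouts by limma-voom and without astrocyte library 10. Sema3e had -0.40 ± 0.34 and 0.61 ± 0.37, and Sema3b, a ligand known as a tumour suppressor, 0.04 ± 0.49 and 0.66 ± 0.52, each with overlapping groups.

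**Figure D2:**
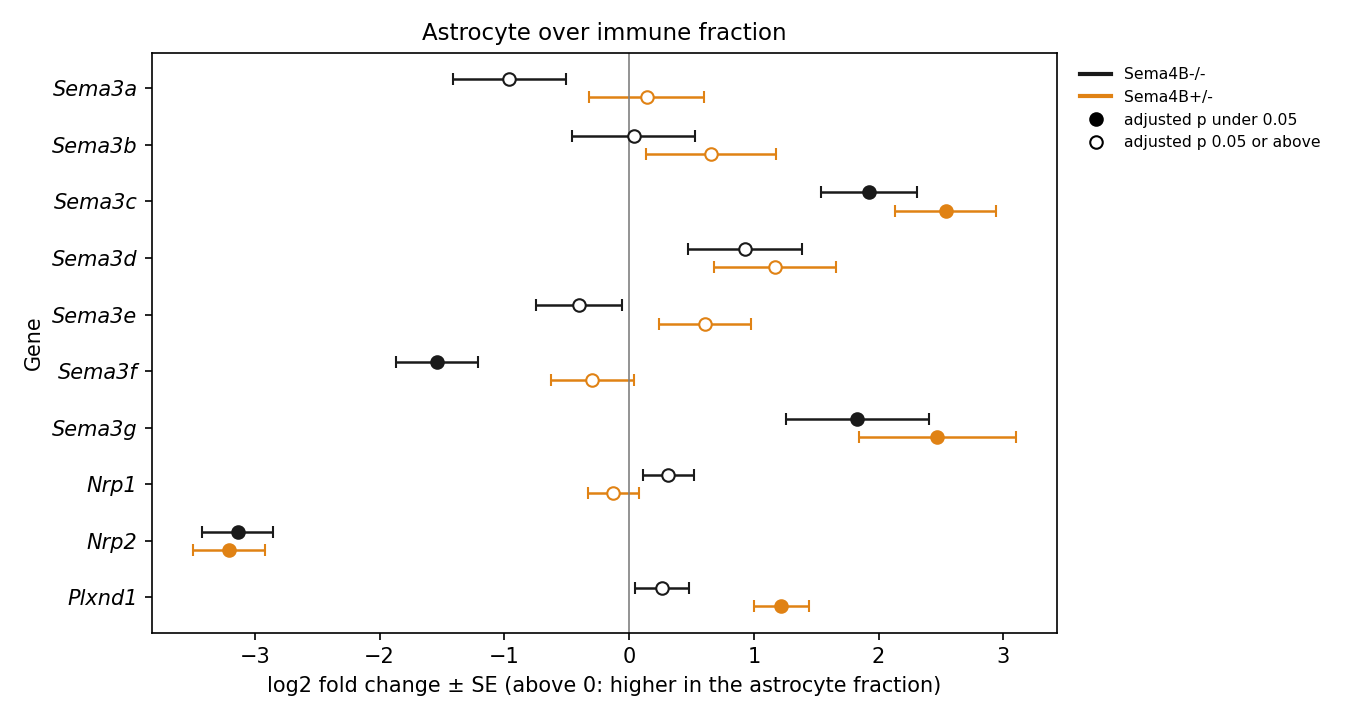
Log2 fold change of each member, astrocyte over immune fraction, with standard errors, in knockouts and heterozygotes. Filled points passed an edgeR adjusted p of 0.05, which Nrp2, Sema3c and Sema3g did in both genotypes, Sema3f in knockouts and Plxnd1 in heterozygotes.

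The make-up of the ligands differed between the fractions. Sema3c took 47.2 ± 8.62% of the summed class 3 semaphorin RPKM in astrocyte knockouts, against 14.98 ± 4.46% in immune knockouts, and 40.9 ± 9.80% in astrocyte heterozygotes, against 15.7 ± 2.13% in immune heterozygotes. Sema3f took 10.6 ± 4.28% against 40.9 ± 6.57% in knockouts and 15.7 ± 5.86% against 39.3 ± 7.60% in heterozygotes, astrocyte against immune. No library of one fraction reached the range of the other for either ligand. Sema3g held 14.4 ± 0.942% and 13.2 ± 5.05% of the sum in astrocyte knockouts and heterozygotes, and 4.92 ± 3.90% and 5.04 ± 2.19% in immune knockouts and heterozygotes. Shares depend on the exon lengths used, and no p was computed for them.

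**Figure D3:**
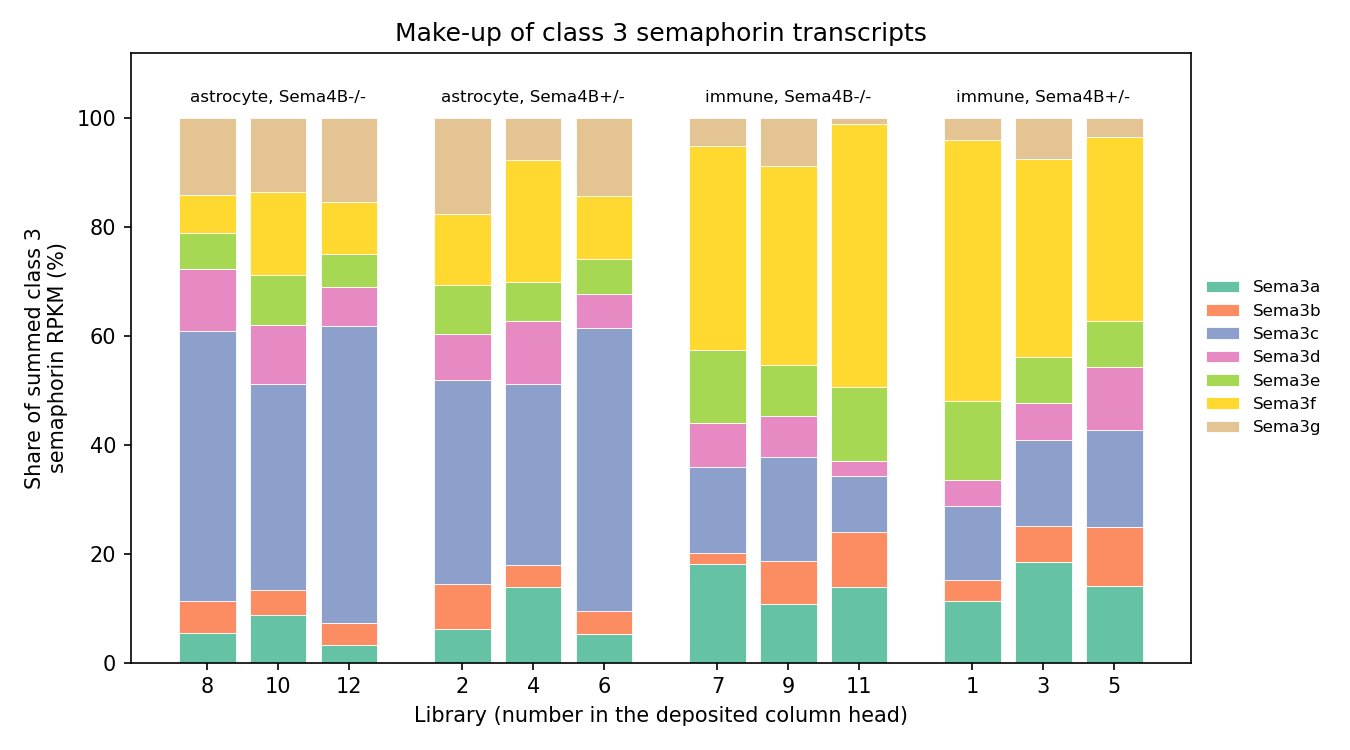
Share of each ligand in the summed class 3 semaphorin RPKM, in percent, 1 bar per library. Sema3c takes 33.3% to 54.5% of the bar in astrocyte libraries, and Sema3f 33.7% to 48.4% in immune libraries.

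Each of the 4 members with a mean of at least 5 CPM was set beside 12029 other genes of at least that level. The measure was the root mean square difference in log2(CPM + 0.5), each gene centred on its own mean over the 12 libraries. Closest to Nrp2 were Il1rl2 (0.17), Prag1 (0.18) and Xlr (0.20), whose counts are uncertain because it belongs to a family of near-identical genes, against a range of 4.01 of Nrp2 itself over the libraries. Closest to Plxnd1 were Ggt7 (0.13), Lrrc8b (0.19) and Trpc1 (0.19), against its range of 1.69. Closest to Sema3c were Pdgfc (0.28), Neto2 (0.29) and Utrn (0.30), against 3.33, and to Nrp1 Pomt1, Pfas and Ampd2 (0.12 each), against 0.88. Libraries within a group share fraction and genotype, and the measure does not separate these from other likeness.

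Within the immune fraction, knockouts were set against heterozygotes to see whether levels of these genes at the wound differed between the genotypes. Plxnd1 and its ligand gene Sema3e, and Sema3f, lay higher in every knockout library than in any heterozygous one, and both neuropilin genes had negative fold changes. No member passed by edgeR, where 0.00% of the 15648 genes tested were called. At an unadjusted p under 0.05, 3 members were higher and 0 lower, against 9.69% higher and 4.90% lower among all genes. With DESeq2, 378 genes rose and 68 fell, and Plxnd1 was the 1 member among them. DESeq2 gave no adjusted p for Sema3b, Sema3c, Sema3d, Sema3e and Sema3g, so these could not be called. With limma-voom no member and 0 genes passed. Fold changes were positive for 8 of 10 members with a median of 0.68, against 49.6% positive and a median of -0.0037 over all genes. Levels in this and the next comparison are TMM-scaled CPM within the fraction.

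Plxnd1 (ENSMUSG00000030123, chromosome 6, 115954811 to 115995005, minus strand), the plexin of endothelium and of some neurons, stood at 74.5, 52.6 and 49.8 CPM in knockout libraries 7, 9 and 11, against 34.8, 31.0 and 31.2 CPM in heterozygous libraries 1, 3 and 5. Library 7 was the highest and the heterozygous libraries lay close together. The log2 fold change of 0.87 ± 0.20, or 1.83-fold, had an unadjusted p of 0.00148 and an adjusted p of 0.227 by edgeR, and an adjusted p of 0.0206 by DESeq2. Leaving out each library in turn gave 0.68 to 0.97, with an edgeR adjusted p of 0.118 to 0.642. In the authors' deposited table Plxnd1 had a log2 fold change of 0.881 and an adjusted p of 0.0384, which passed their threshold of 0.05 for p and missed that of 1 for the fold change.

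Sema3e (ENSMUSG00000063531, chromosome 5, 14025276 to 14256689, plus strand) had 88, 37 and 57 reads in knockout libraries 7, 9 and 11, against 29, 23 and 20 reads in heterozygous libraries 1, 3 and 5. As for Plxnd1, library 7 was the highest and the genotypes did not overlap. The log2 fold change was 1.02 ± 0.35 (edgeR unadjusted p = 0.0171, adjusted p = 0.261), and 0.71 to 1.23 when each library was left out in turn. Sema3f had 138, 81 and 114 reads in the knockout libraries 7, 9 and 11, against 54, 55 and 44 reads in the heterozygous libraries 1, 3 and 5, or 0.82 ± 0.26 (edgeR unadjusted p = 0.0104, adjusted p = 0.242). Knockouts lay wholly above heterozygotes for these 3 members and for 10.6% of all genes, and wholly below for 0 members and 9.29% of all genes.

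The other ligands overlapped between the genotypes. Sema3a stood at 11.3, 4.74 and 5.67 CPM in knockout libraries 7, 9 and 11, against 2.77, 5.79 and 4.44 CPM in heterozygous libraries 1, 3 and 5, and library 7 alone lay above all of these. Its log2 fold change was 0.74 ± 0.40 (edgeR adjusted p = 0.409), and 0.28 without library 7. Sema3c had 0.68 ± 0.39, Sema3g 0.68 ± 0.72, Sema3b 0.49 ± 0.57 and Sema3d 0.47 ± 0.57, with edgeR adjusted p between 0.429 and 0.702. For Sema3c, Sema3d and Sema3g, knockout library 11 lay below libraries 7 and 9. On the scale of all 12 libraries, the summed RPKM of the 7 ligands was 3.25 ± 0.815 in knockouts against 2.00 ± 0.202 in heterozygotes (exact two-sided permutation p = 0.1, the smallest possible, 0.2 adjusted over the 8 contrasts).

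Neuropilin genes ran the other way without separating. Nrp1 stood at 24.1, 17.5 and 17.1 CPM in knockout libraries 7, 9 and 11, against 27.9, 19.8 and 30.3 CPM in heterozygous libraries 1, 3 and 5, which is -0.41 ± 0.23 as a log2 fold change (edgeR adjusted p = 0.420). Nrp2 stood at 137, 154 and 80.7 CPM in the knockout libraries, against 193, 167 and 106 CPM in the heterozygous libraries, at -0.33 ± 0.29 (edgeR adjusted p = 0.593). By limma-voom the fold change of Nrp2 was -0.0046. Libraries 11 and 5 were the lowest of their group for Nrp2. The ratio of Nrp2 to Nrp1 was 5.29 ± 1.75 in knockouts and 5.20 ± 2.10 in heterozygotes (exact two-sided permutation p = 0.9).

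**Figure D4:**
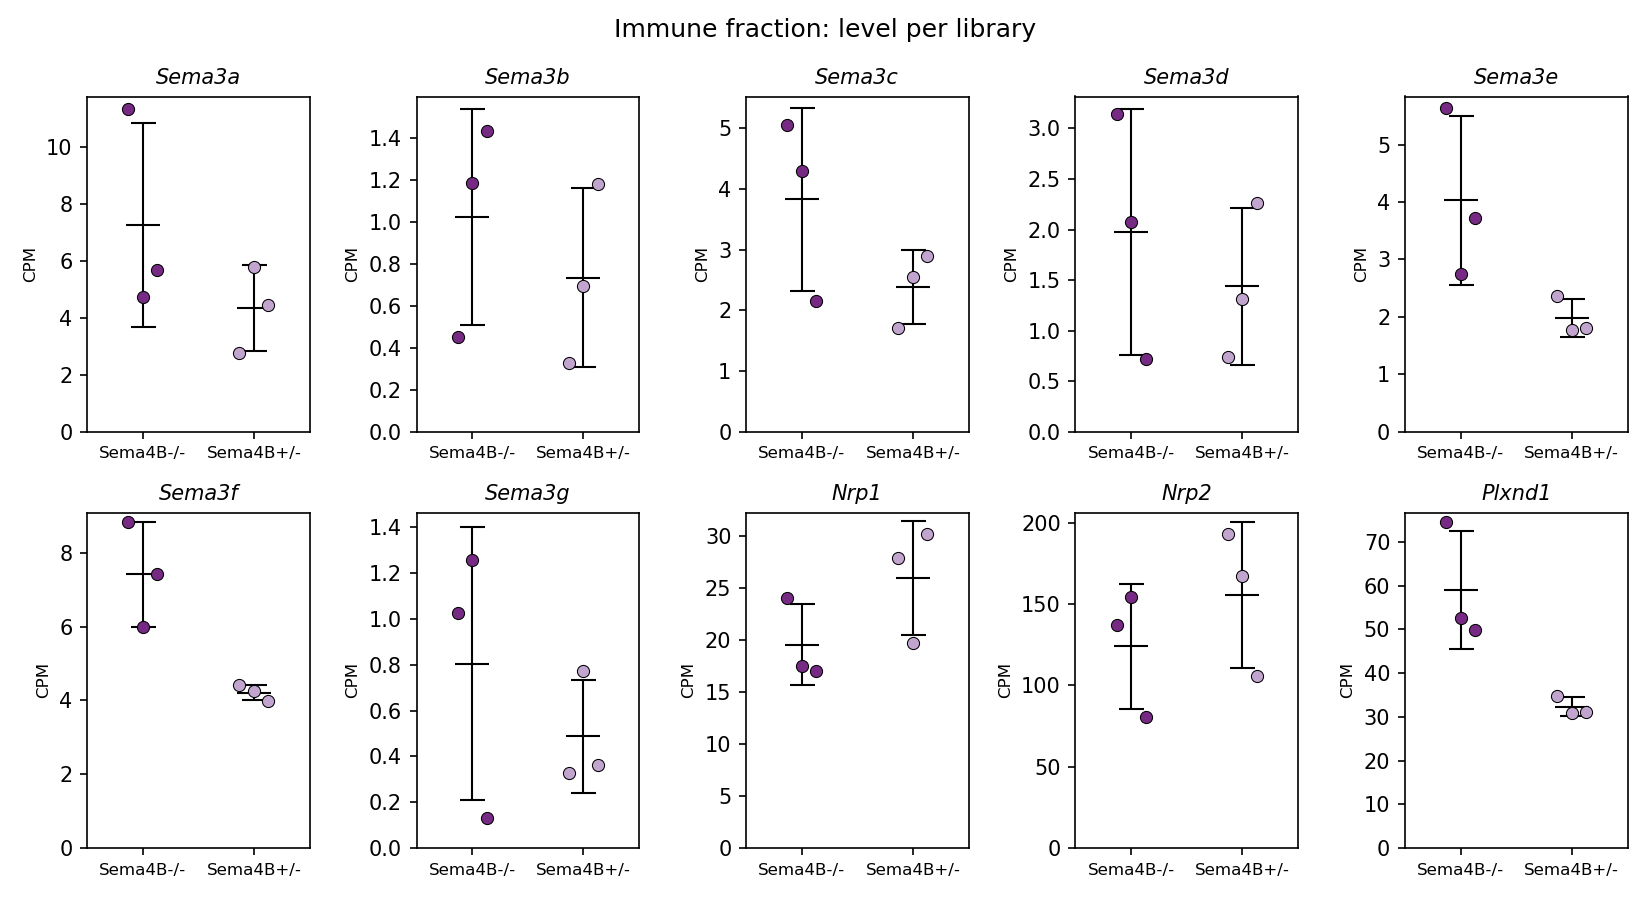
Level of each member in the immune fraction, in TMM-scaled CPM, with a point per library and the mean ± SD of 3. Knockout and heterozygous points separate for Sema3e, Sema3f and Plxnd1 and overlap for the other 7 members.

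Markers of other cells were set beside these values. Summed neuron markers were at 5447, 4920 and 8630 CPM in knockout libraries 7, 9 and 11, against 2780, 4909 and 4411 CPM in heterozygous libraries 1, 3 and 5, and all 12 had positive fold changes (median 0.64). Every knockout library thus lay above every heterozygous one for this sum, though knockout library 9 barely exceeded heterozygous library 3. Plxnd1, Sema3e and Sema3f also separated. Each of these genes was highest in library 7, and the neuron sum was highest in library 11. Summed endothelial markers were at 367, 504 and 191 CPM in the knockout libraries, against 368, 316 and 331 CPM in the heterozygous libraries, and so overlapped, although 11 of the 12 endothelial markers tested had positive fold changes (median 0.83). All 10 mural markers were positive too (median 1.52), with sums of 201, 547 and 29.7 CPM in the knockout libraries, against 35.9, 135 and 106 CPM in the heterozygous libraries. Summed astrocyte markers were at 1334, 1534 and 652 CPM in the knockout libraries, against 759, 941 and 900 CPM in the heterozygous libraries, with 12 of 12 positive fold changes (median 0.40). Summed microglia markers were lower, at 10291, 10649 and 7202 CPM in knockouts against 15193, 12105 and 13116 CPM in heterozygotes, with 12 of 12 negative fold changes. Monocyte and macrophage markers were lower and did not overlap either, at 277, 337 and 185 CPM in knockouts against 428, 398 and 442 CPM in heterozygotes, with 9 of 9 negative fold changes (median -0.72). Neutrophil markers had 9 of 9 negative fold changes (median -0.83). Their sums overlapped, at 1109, 1573 and 615 CPM in knockouts against 1747, 1336 and 2632 CPM in heterozygotes. Oligodendrocyte markers had 8 of 8 positive fold changes (median 0.30), and their sums overlapped too. None of these markers was at 0 in a whole group. The part of neuron, vessel, astrocyte, oligodendrocyte, microglia, monocyte and neutrophil RNA in the values of the members was not tested.

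In the astrocyte fraction no member stood apart between the genotypes. By edgeR 0.00% of the 15468 genes tested were called and no member was, with 0 members at an unadjusted p under 0.05 against 1.70% of all genes higher and 2.13% lower. DESeq2 and limma-voom also called 0 members, and 1 and 0 genes in all. Fold changes were negative for 8 of 10 members with a median of -0.10, against a median of 0.0036 over all genes, and every member overlapped between the groups, whereas 7.30% of all genes lay wholly above and 4.53% wholly below. The count of negative members moved with single libraries: without heterozygous library 6 or knockout library 8 it was 5 of 10, and the median ranged from -0.28 to -0.04 when each library was left out in turn.

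Plxnd1 stood at 66.6, 70.6 and 46.1 CPM in knockout libraries 8, 10 and 12, against 56.6, 88.1 and 58.1 CPM in heterozygous libraries 2, 4 and 6, which is -0.15 ± 0.21 as a log2 fold change (edgeR adjusted p = 0.965). Sema3c averaged 12.6 ± 0.397 CPM in knockouts and 12.4 ± 7.17 CPM in heterozygotes, at 0.02 ± 0.35. That value turned negative without heterozygous library 2 or 4 or knockout library 12, with a range of -0.26 to 0.61. Nrp2 had the lowest p, at 12.7, 13.2 and 10.6 CPM in knockout libraries 8, 10 and 12, against 16.2, 12.5 and 16.7 CPM in heterozygous libraries 2, 4 and 6, which is -0.31 ± 0.17 as a log2 fold change (edgeR unadjusted p = 0.0957, adjusted p = 0.930). Nrp1 averaged 20.95 ± 3.04 CPM in knockouts and 21.4 ± 1.48 CPM in heterozygotes, at -0.03 ± 0.14. The standard errors of the ligands ran from 0.29 to 0.46 on the log2 scale. Among vessel markers, 13 of 14 endothelial markers (median -0.22) and 10 of 10 mural markers (median -0.49) had negative fold changes here. Their part in the values of the members was not tested.

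**Figure D5:**
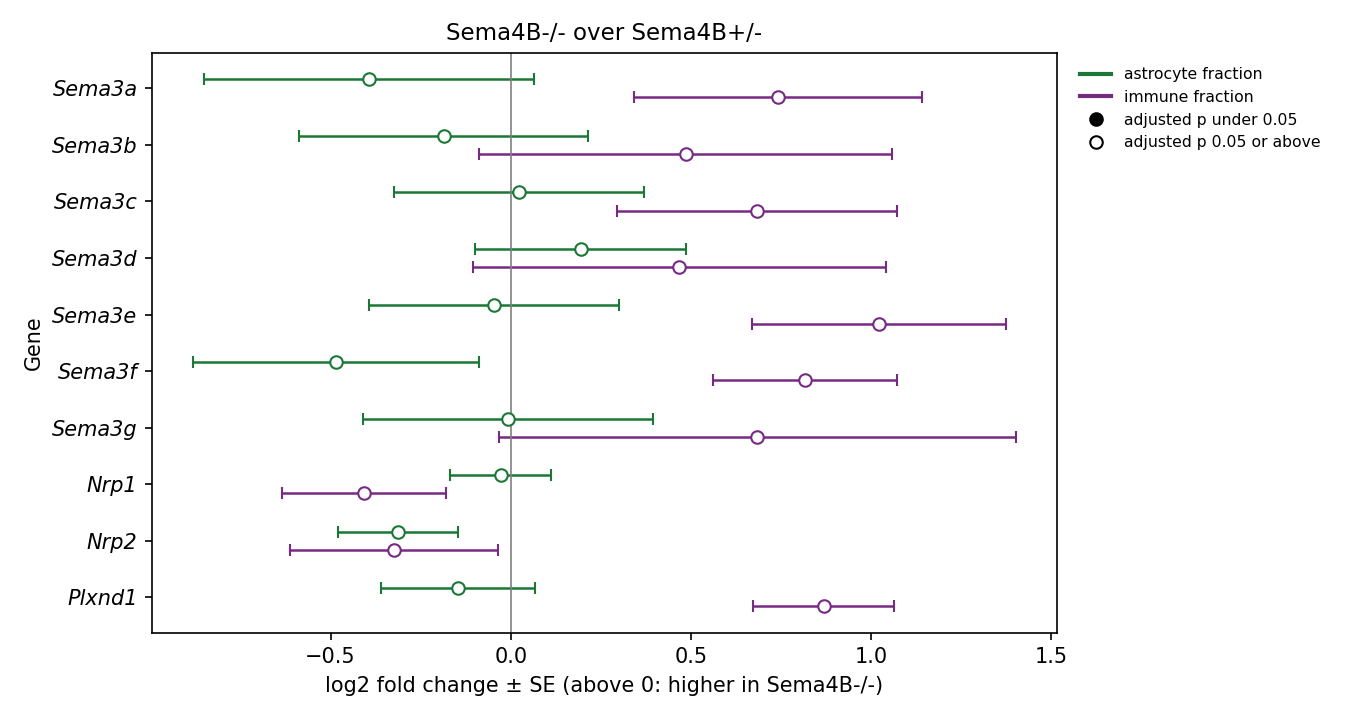
Log2 fold change of each member, knockout over heterozygote, with standard errors, in the astrocyte and the immune fraction. Immune values lie above 0 for the 7 ligands and Plxnd1, and no point passed an edgeR adjusted p of 0.05.

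Whether the genotype effect itself differed, astrocyte minus immune, was tested over all 12 libraries. For Plxnd1 it was -0.96 ± 0.31 on the log2 scale (edgeR unadjusted p = 0.00840, adjusted p = 0.475), for Sema3f -1.25 ± 0.47 (unadjusted p = 0.0186, adjusted p = 0.475) and for Sema3e -1.01 ± 0.50 (unadjusted p = 0.0643, adjusted p = 0.486). No member passed, and 0.00% of the 16880 genes did. At an unadjusted p under 0.05, 0 members were higher and 2 lower, against 4.06% and 6.32% of all genes. DESeq2 called 0 members and 3 genes, and limma-voom 0 and 0. A difference between the fractions in the genotype effect was thus not established for any member. Nrp2 had 0.07 ± 0.38.

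Partners of the members were compared in the same ways, between the genotypes and between the fractions. Plexin A genes, the signalling partners of neuropilins, and the adhesion molecules L1cam, Nrcam and Chl1, which bind neuropilins in cis, form a list of 7. In the immune fraction 6 of the 7 had positive genotype fold changes with an unadjusted p under 0.05 and no overlap, against 9.69% and 10.6% of all genes. Summed neuron markers were higher in the same libraries, at 4920 to 8630 CPM in knockouts against 2780 to 4909 CPM in heterozygotes, and their part in this list was not tested. None of the list passed the edgeR threshold, and its median log2 fold change was 0.86. L1cam had 52.1 ± 12.7 CPM in knockouts and 28.8 ± 3.02 CPM in heterozygotes, which is 0.86 ± 0.21 as a log2 fold change (edgeR adjusted p = 0.227). Plxna2 had 59.3 ± 21.6 CPM in knockouts and 28.9 ± 7.97 CPM in heterozygotes, at 1.04 ± 0.28 (edgeR adjusted p = 0.227). Plxna3, named after its values were seen, was the exception, at 15.1 ± 3.37 CPM in knockouts and 17.0 ± 3.65 CPM in heterozygotes. In the astrocyte fraction 6 of the 7 were negative (median -0.18) and 0 had an unadjusted p under 0.05 by edgeR. For the difference between the fractions, 5 of the 7 had an unadjusted p under 0.05 and 0 passed, where 4.06% of all genes were higher and 6.32% lower at that p. Neuron markers had negative values of this difference for 12 of 12 (median -0.62).

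Between the fractions, 3 of these 7 genes rose and 2 fell in astrocyte over immune libraries of knockouts by edgeR, and 4 rose and 0 fell in heterozygotes. Among all genes, 29.0% rose and 30.7% fell in knockouts, and 30.0% rose and 30.3% fell in heterozygotes. Nrcam had 469 ± 39.9 CPM in astrocyte knockouts against 86.1 ± 42.5 CPM in immune knockouts, and 487 ± 23.6 CPM in astrocyte heterozygotes against 42.8 ± 2.54 CPM in immune heterozygotes. The log2 fold changes of Nrcam were 2.44 ± 0.27 and 3.51 ± 0.28 (edgeR adjusted p = 3.94e-06 and 1.69e-07). Plxna4 was lower in the astrocyte fraction of knockouts, at 21.9 ± 5.28 against 41.0 ± 8.81 CPM (log2 fold change -0.91 ± 0.22, edgeR adjusted p = 0.00264).

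Of 8 VEGF ligands and receptors, which share neuropilins with the semaphorins, 7 rose and 0 fell in astrocyte over immune libraries by edgeR in either genotype, against 29.0% and 30.7% of all genes in knockouts and 30.0% and 30.3% in heterozygotes. Endothelial markers were higher in the same fraction too (13 of 14 in heterozygotes), and their part in this count was not tested. Flt1 and Kdr belong to both lists, so the counts are not independent. The endothelial growth factor gene Vegfa had 426 ± 19.6 CPM in astrocyte knockouts against 78.7 ± 23.4 CPM in immune knockouts, and 421 ± 93.4 CPM in astrocyte heterozygotes against 89.8 ± 27.6 CPM in immune heterozygotes. Its log2 fold changes were 2.44 ± 0.28 and 2.23 ± 0.28 (edgeR adjusted p = 5.60e-06 and 1.03e-05). Between the genotypes 0 of the 8 passed or had an unadjusted p under 0.05 by edgeR in either fraction. The lymphatic VEGF receptor gene Flt4 had the lowest p of them in the immune fraction, at 1.78 ± 1.45 CPM in knockouts and 0.742 ± 0.305 CPM in heterozygotes.

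Intracellular mediators numbered 24. By edgeR 8 rose and 7 fell in astrocyte over immune libraries of knockouts, and 9 rose and 5 fell in heterozygotes, or 15 and 14 of the 24 in either direction against 59.8% and 60.3% of all genes. Farp1, a Rac exchange factor bound to plexin A, was higher at 270 ± 81.7 against 35.7 ± 5.63 CPM in knockouts and 285 ± 33.1 against 30.6 ± 1.99 CPM in heterozygotes, astrocyte against immune (edgeR adjusted p = 1.21e-07 and 4.73e-08). Fes, a tyrosine kinase downstream of semaphorin 3A, was lower at 6.74 ± 1.74 against 94.8 ± 16.1 CPM and 6.03 ± 2.03 against 155 ± 48.2 CPM in the same order (edgeR adjusted p = 2.20e-07 and 4.19e-08). In the genotype comparison 0 of the 24 passed. Among immune libraries 6 of the 24 had an unadjusted edgeR p under 0.05, where 9.69% of all genes were higher and 4.90% lower. Among astrocyte libraries 1 of the 24 did, where 1.70% of all genes were higher and 2.13% lower at that p. Mical2, a redox enzyme acting on actin, had 157 ± 42.9 CPM in immune knockouts and 91.4 ± 22.1 CPM in immune heterozygotes, which is 0.78 ± 0.25 as a log2 fold change (edgeR adjusted p = 0.247).

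The last list held 7 proteases that process semaphorins or neuropilins. By edgeR 1 rose and 4 fell in astrocyte over immune libraries of knockouts, and 1 rose and 5 fell in heterozygotes, where 29.0% and 30.0% of all genes rose and 30.7% and 30.3% fell, in knockouts and heterozygotes. Furin, whose enzyme cleaves class 3 semaphorins, was lower at 48.2 ± 10.3 against 250 ± 33.7 CPM in knockouts and 53.6 ± 4.60 against 308 ± 66.4 CPM in heterozygotes, astrocyte against immune (edgeR adjusted p = 4.62e-07 and 2.23e-07). Adamts1, whose enzyme cleaves semaphorin 3C, had 292 ± 69.0 CPM in immune knockouts and 557 ± 132 CPM in immune heterozygotes. Its knockouts lay wholly below heterozygotes, as did those of 9.29% of all genes. The log2 fold change was -0.93 ± 0.26 (edgeR unadjusted p = 0.00557, adjusted p = 0.227). Summed microglia and monocyte markers were lower in the same knockout libraries, and their part in this value was not tested. Adamts1 stood at 204 ± 13.9 CPM in astrocyte knockouts and 194 ± 36.9 CPM in astrocyte heterozygotes. No protease passed between the genotypes in either fraction.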

How the data were processed

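RNA sequencing covered 12 libraries in 4 groups. Per the submitters' processing notes, reads were handled with cutadapt, STAR, HTSeq and DESeq2 on GRCm38; versions, annotation and strand use are not given in the sources used here. The deposited tables hold raw counts per gene (per the file headers), which were used as deposited. The authors' log2 fold changes of knockout over heterozygote stand in the same tables, with raw and adjusted p-values of the authors. A deposited score, the highest count of a gene, and 12 columns of values normalized by the authors were not used. The numbers in the column heads do not follow the sample titles, so columns were mapped to groups only.

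Fits used edgeR 4.0.16 (R 4.3.3) quasi-likelihood F tests, two-sided, on TMM-scaled libraries. Low genes were removed by filterByExpr at minimums of 10 counts and 15 in total, with Benjamini-Hochberg adjustment across every gene in the fit (threshold 0.05). Genotype was tested on the 6 libraries of a fraction, the other contrasts on all 12. Standard errors of edgeR fold changes were derived from the test, as the absolute log2 fold change divided by the square root of F. The test was checked on simulated data. That simulation gave every gene the same dispersion and changed only genes above a minimum count, by more than any member changed between the genotypes. It therefore does not show how the test does with few reads or small changes. Members, 4 pathway lists, 11 marker lists and the naming rule (all members, Sema4b, the 3 genes most like a member of at least 5 CPM, and the lowest p of each pathway list, of which the text gives examples) were chosen with earlier results of these data known. Replicates were not copies, with 10.9 to 79.9 as the average chi-square of a gene between 2 of them. Alternatives tried were DESeq2 1.42.0, limma-voom (limma 3.58.1), scaling by RLE or upper quartile, other filters (none, or 1 CPM in 3 libraries), other sample sets, leaving out each library, and longest-transcript lengths. GENCODE release 21 held 20740 of the 20776 identifiers.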

Additional observations from a re-analysis of the deposited data

How the results depend on the processing

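By DESeq2, 446 genes were called in the immune genotype comparison in place of 0, among them 1 member, Plxnd1. Further calls by DESeq2 were 1 gene in the astrocyte genotype comparison and 3 in the difference between the fractions, in place of 0 each. The cause was not tested. In the immune genotype comparison DESeq2 gave no adjusted p for Sema3b, Sema3c, Sema3d, Sema3e and Sema3g. Nrp2, Sema3c and Sema3g in both genotypes, Sema3f in knockouts and Plxnd1 in heterozygotes kept their call and direction between the fractions under every alternative run. Directions turned for members that had not passed: Sema3b between the fractions of knockouts under upper-quartile scaling (-0.011), Sema3a between those of heterozygotes by limma-voom (-0.074), and Nrp2 in the difference between the fractions by limma-voom (-0.34). Leaving out each library in turn gave, on the log2 scale, -0.038 to 0.94 for Sema3d in the immune genotype comparison. In the astrocyte genotype comparison it gave -0.48 to 0.076 for Sema3b, -0.26 to 0.61 for Sema3c, -0.052 to 0.40 for Sema3d, -0.45 to 0.11 for Sema3e, -0.37 to 0.36 for Sema3g, -0.18 to 0.038 for Nrp1 and -0.29 to 0.092 for Plxnd1. Between the fractions it gave -0.32 to 0.35 for Sema3b in knockouts and -0.13 to 0.40 for Sema3a in heterozygotes, and for the difference -0.18 to 0.29 for Nrp2 and -0.69 to 0.28 for Sema3d. With longest-transcript lengths, Plxnd1 and Nrp1 changed places in immune heterozygotes and Sema3c and Nrp2 in astrocyte heterozygotes. Lower ligands also changed rank in each group. Sema3a moved above Sema3c in both immune groups, from rank 9 to 7 in astrocyte knockouts and from 8 to 6 in astrocyte heterozygotes. No paired analysis was possible because the groups share no replicate numbers in the labels, and nothing ties the numbers in the column heads to animals. Several ligands had under 100 reads in most libraries, which limits the precision of their fold changes.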
